A study of Mus musculus with 10 samples.

Results

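The Bcl2 family of apoptosis regulators was followed through the motor neurons of mice whose muscles secrete extra neurturin. The members are 10 genes of the 51912 in the count files, taken by symbol: the BH3-only genes Hrk, Bcl2l11, Bbc3, Bid and Bad, the effector genes Bax and Bak1, and the survival genes Bcl2, Bcl2l1 and Mcl1. The family was picked because Hrk was already known to differ between the genotypes in these libraries, so the genotype values of Hrk, p-values included, are a description and support nothing further. The tested mice carried HSA-NRTN, a transgene in which the human skeletal actin promoter makes muscle fibres express the GDNF-family ligand neurturin, and the controls were their wild-type littermates. Each of the 5 HSA-NRTN and 5 wild-type libraries came from 1 mouse and from a pool of about 50 lumbar motor neurons cut out by laser, with 3 females and 2 males in each group. Only cells of more than 200 μm2 with a visible nucleolus were taken, so motor neurons below that area are not represented. Because the transgene is driven in muscle, the captured cells carry no level that checks the genotype. The sources used here give neither the age of the mice nor the number of transgenic founder lines.

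Apoptosis through the mitochondria is decided by contacts within the Bcl2 family. Survival proteins hold the effectors Bax and Bak in check, BH3-only proteins bind the survival proteins or the effectors through a short helix called BH3, and freed effectors open the outer mitochondrial membrane and release cytochrome c. In neurons the BH3-only genes are known for transcriptional control: Hrk (harakiri) and Bcl2l11 (Bim) are induced when developing neurons lose trophic support, Hrk under the JNK pathway and its target Jun, and Bcl2l11 under Jun and FOXO factors. Bax is known to be needed for the natural death of motor neurons during development.

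The family shares 1 stretch, the BH3 core, which is among the features that define the Bcl2 family. A match in every member therefore follows from the choice of members and is given as a description only. In the coding sequences of GENCODE M21 on GRCm38, each of the 10 members held exactly 1 copy of the core of the BH3 helix, searched as a leucine codon, any 3 codons, a codon for glycine, alanine or serine, and a codon for aspartate. The same pattern occurred at least once in 7330 of 21554 protein-coding genes (34.01%), so its presence alone marks no family. Below, 36 bases around the match are printed in coding direction, 5′ to 3′, with the leucine codon and the pair of codons at the core's end in capitals. Hrk is given as the gene that differed, Bcl2l11 and Bcl2 as the members most and least like it, and Bax as an effector.
Hrk: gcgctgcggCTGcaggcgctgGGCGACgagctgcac
Bcl2l11: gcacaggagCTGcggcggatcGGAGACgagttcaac
Bax: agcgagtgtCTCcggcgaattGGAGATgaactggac
Bcl2: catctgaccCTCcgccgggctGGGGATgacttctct
They lie at chr5:118169882-118169917 on the plus strand for Hrk, chr2:128147141-128147176 on the plus strand for Bcl2l11, chr7:45465997-45466032 on the minus strand for Bax and chr1:106712575-106712610 on the minus strand for Bcl2. Of the 36 bases, 23 were identical to those of Hrk in Bcl2l11, 18 in Bax and 14 in Bcl2, and the other 6 members fell between 17 and 22. Hrk spans 118164648 to 118189478 on the plus strand of chromosome 5 (GRCm38), and its exons overlap no other annotated gene. Bcl2l11 and Bcl2l1 lie on chromosome 2, Bbc3 and Bax on 7, and Bcl2, Mcl1, Bid, Bak1 and Bad on 1, 3, 6, 17 and 19. Hrk codes for the shortest protein of the 10, with 92 residues against 192 to 331 in the others. Its 276 coding bases lie wholly in the first exon and make up 4.86% of the 5677 exonic bases counted for the gene, so nearly all of the length over which reads were counted is untranslated sequence.

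Libraries held 1875971 to 6641695 gene counts, with 14090 to 19675 genes detected. All 7 motor neuron markers were present in both groups, with summed levels of 5518 to 8362 CPM in HSA-NRTN and 6478 to 8344 CPM in wild-type libraries (CPM is counts per 1000000 counts after TMM scaling of library sizes). Of the 7, Chat, which encodes the enzyme that makes acetylcholine, did not overlap between the groups, at 98.5 to 151 CPM in HSA-NRTN and 70.7 to 98.1 CPM in wild-type libraries. The nearest libraries of the 2 groups were thus at 98.5 and 98.1 CPM, and 145 of the 11630 genes tested (1.25%) had groups without overlap in either direction. The ranges of the other 6 motor neuron markers overlapped. HSA-NRTN replicate 2 stood apart: it had the lowest gene count, the largest share of unaligned reads (58.6%) and the highest levels of glial markers. Its 5 astrocyte markers summed to 733 CPM, against 45.9 to 84.2 CPM in the other HSA-NRTN libraries and 45.5 to 243.1 CPM in wild-type libraries. Its 5 oligodendrocyte markers summed to 1382 CPM, against 243.5 to 445 CPM in the other HSA-NRTN and 193 to 598 CPM in wild-type libraries. No marker of these 2 lists was at 0 in either group. Other marker sums overlapped between the genotypes: 0.297 to 2.85 CPM in HSA-NRTN and 2.24 to 6.51 CPM in wild-type libraries for the 5 microglial markers, all detected in both groups. Endothelial markers summed to 3.86 to 23.8 CPM in HSA-NRTN, where Cldn5 was at 0, and to 0.344 to 14.5 CPM in wild-type libraries. Fibroblast markers summed to 0.986 to 56.9 CPM in HSA-NRTN, where Lum was at 0, and to 11.02 to 352 CPM in wild-type libraries, where Col1a1 was at 0. Inhibitory interneuron markers summed to 11.1 to 160 CPM in HSA-NRTN and 0.688 to 172 CPM in wild-type libraries. Excitatory interneuron markers summed to 21.4 to 182 CPM in HSA-NRTN and 0.283 to 299.7 CPM in wild-type libraries, with Slc17a8 at 0 in both. In pools of cells, fewer cells of a type and less RNA per cell cannot be told apart.

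Hrk was found in all HSA-NRTN pools and was close to absent from wild-type pools. It had 21, 62, 12, 27 and 25 counts in HSA-NRTN replicates 1 to 5, or 6.23, 33.5, 2.20, 3.85 and 6.16 CPM. In wild-type pools it had 0 counts in replicates 1 to 4 and 1 count, or 0.198 CPM, in replicate 5. Every HSA-NRTN library thus lay above every wild-type library, and HSA-NRTN replicate 2 lay far above the others. The lowest exact 95% counting bound of any HSA-NRTN library was 1.14 CPM, in replicate 3, and the highest upper bound of any wild-type library was 1.10 CPM, in replicate 5. A count of 0 allowed a level of up to 0.516 to 0.850 CPM in a wild-type library, taking 3 counts as the limit. These bounds cover counting error only and leave out the differences between mice. The protocol amplifies by PCR without molecular identifiers, so copies of the same molecule count separately and the bounds can be too narrow even for counting.

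Pooled over libraries, Hrk had 147 counts in HSA-NRTN and 1 count in wild-type mice, a ratio of 155 with an exact 95% counting interval of 27.5 to 6181. The upper end of that interval is set by the single wild-type count. Both this interval and the next take counts, not mice, as the unit and leave out the differences between mice. Of the 147 counts, 62 came from HSA-NRTN replicate 2. The mean level was 10.4 ± 13.0 CPM in HSA-NRTN (SD, n = 5) and 0.0397 ± 0.0887 CPM in wild-type pools (SD, n = 5). Without HSA-NRTN replicate 2, the 4 remaining HSA-NRTN libraries held 85 counts at 4.61 ± 1.95 CPM against the same 1 wild-type count, a ratio of 98.2 with an interval of 17.2 to 3925. The summed astrocyte and oligodendrocyte level was highest in HSA-NRTN replicate 2 (2115 CPM) and next highest in wild-type replicate 1 (841 CPM), which held 0 counts of Hrk. HSA-NRTN replicates 1, 3, 4 and 5, whose astrocyte markers lay within the wild-type range, held 12 to 27 counts. The part of non-neuronal RNA in the Hrk level of HSA-NRTN replicate 2, or of any other library, was not tested.

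**Figure D1:**
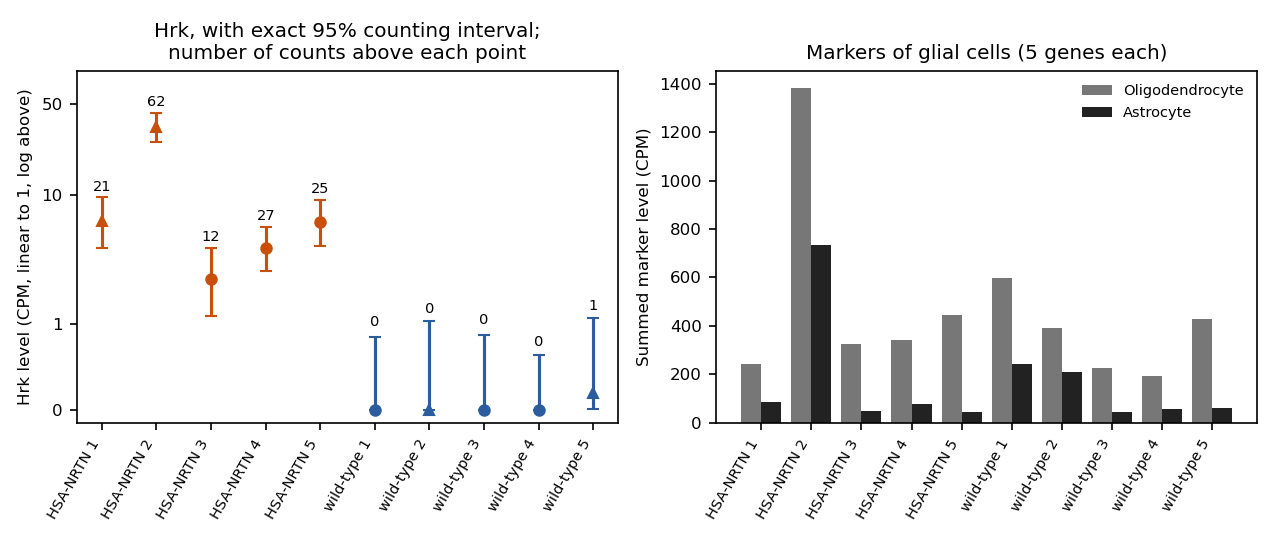
Left, Hrk level in each library (CPM, axis linear to 1 and logarithmic above) with its exact 95% counting interval, the number of counts above each point, circles for females and triangles for males. Right, summed CPM of 5 oligodendrocyte and 5 astrocyte markers in the same libraries: HSA-NRTN replicate 2 was highest for Hrk (33.5 CPM) and for both glial sums (1382 and 733 CPM), while the other HSA-NRTN libraries had 2.20 to 6.23 CPM of Hrk.

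Hrk, whose known genotype difference led to the choice of the family, had a log2 fold change of 7.18 (SE 1.24) in HSA-NRTN over wild-type pools. Its adjusted p over 11630 genes was 0.0501 with edgeR's F test (quasi-likelihood), just outside the threshold of 0.05. That threshold was passed by 1 gene of the 11630 (0.0086%). The authors' deposited table gives Hrk a moderated log2 fold change of 2.26 (SE 0.415) and an adjusted p of 5.18e-06. DESeq2, which called 126 of 15741 genes (0.8%), put Hrk at 7.41 with an adjusted p of 1.45e-05. Among all genes kept, 75 (0.645%) had all 5 HSA-NRTN libraries above all wild-type libraries and 145 (1.25%) had groups without overlap in either direction. Of the 10 members, Hrk was the one whose groups did not overlap.

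The other BH3-only genes overlapped between the genotypes. Bcl2l11, which encodes Bim, had 11.9, 0.540, 3.11, 8.84 and 4.44 CPM in HSA-NRTN pools, against 5.74, 4.81, 2.11, 3.79 and 6.35 CPM in wild-type pools. Both the highest and the lowest level of Bcl2l11 fell in HSA-NRTN mice, the lowest resting on 1 count in replicate 2. The log2 fold change of Bcl2l11 was 0.35 (SE 0.76; adjusted p = 0.999 by edgeR).

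Bid, whose product links death receptors to mitochondria once cut by caspase 8, had 8.01, 11.3, 16.7, 16.1 and 1.73 CPM in HSA-NRTN pools. In wild-type pools Bid had 6.89, 5.10, 12.7, 15.7 and 11.7 CPM, and the groups overlapped over most of their range. Bad, whose product is held inactive by survival-factor kinases, had 15.4, 4.86, 19.2, 15.1 and 15.0 CPM in HSA-NRTN and 7.11, 11.04, 21.8, 21.5 and 15.1 CPM in wild-type pools. Their log2 fold changes were 0.05 (SE 0.61) for Bid and -0.13 (SE 0.49) for Bad, both with an adjusted p of 0.999 by edgeR. The reads were not stranded, and exons of both genes lie opposite another gene: 17.7% of the exonic bases of Bid opposite Bcl2l13 and 20.5% of those of Bad opposite Gpr137.

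Bbc3, which encodes Puma, a target of p53, was too low for the filter and was not tested. It had 6, 21, 0, 2 and 10 counts in HSA-NRTN replicates 1 to 5, against 9, 7, 2, 0 and 3 counts in wild-type replicates 1 to 5. As levels this was 1.78, 11.3, 0, 0.285 and 2.47 CPM in HSA-NRTN pools and 2.07, 1.98, 0.469, 0 and 0.595 CPM in wild-type pools. HSA-NRTN replicate 2 was high for Bbc3 as it was for Hrk, and the other 4 HSA-NRTN libraries lay between 0 and 2.47 CPM, beside 0 to 2.07 CPM in wild-type libraries.

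Both effectors overlapped between the genotypes. Bax had 6.52, 5.94, 5.31, 5.42 and 4.44 CPM in HSA-NRTN pools, against 3.44, 3.68, 2.82, 8.26 and 4.76 CPM in wild-type pools. The HSA-NRTN levels of Bax were the most even of all members (5.53 ± 0.777 CPM, SD, n = 5, a coefficient of variation of 14.1%) and lay within the wild-type range, with a log2 fold change of 0.26 (SE 0.63; adjusted p = 0.999 by edgeR). On the same strand, 12.2% of the exonic bases of Bax are shared with Gm45808, which had 0 counts. Bak1 was nearly undetected, with 1, 3, 0, 1 and 1 counts in HSA-NRTN and 22, 0, 1, 0 and 2 counts in wild-type pools. Wild-type replicate 1 thus held 22 of the 25 wild-type counts of Bak1, at 5.05 CPM, and the gene was removed by the filter and not tested. Of the exonic bases of Bak1, 18.2% lie opposite Ggnbp1, which had 28 counts over all libraries.

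The survival genes overlapped as well. Bcl2, the founding member, had 38.6, 52.96, 17.0, 31.5 and 51.0 CPM in HSA-NRTN pools, against 42.9, 25.2, 19.9, 16.9 and 31.5 CPM in wild-type pools. Bcl2 averaged 38.2 ± 14.8 CPM in HSA-NRTN pools and 27.3 ± 10.4 CPM in those of wild-type mice (SD, n = 5 each). The log2 fold change was 0.48 (SE 0.38; adjusted p = 0.999 by edgeR). Of the exonic bases of Bcl2, 6.1% lie opposite the antisense gene D630008O14Rik, which had 42 counts over all libraries.

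Bcl2l1, which encodes the survival protein Bcl-xL, had 21.9, 10.3, 20.1, 15.1 and 21.2 CPM in HSA-NRTN pools. In wild-type pools Bcl2l1 had 19.5, 7.65, 18.3, 12.9 and 46.8 CPM, so wild-type pools held both extremes and replicate 5 was more than any other library. Mcl1, which encodes a short-lived survival protein, had 33.8, 52.4, 44.3, 38.2 and 74.0 CPM in HSA-NRTN and 66.1, 43.3, 36.6, 49.6 and 102 CPM in wild-type pools. Wild-type replicate 5 was again the highest library, and it was also the library with 299.7 CPM of excitatory interneuron markers, while wild-type replicates 1 to 4 had 0.283 to 29.6 CPM; the part of such cells in these levels was not tested. The log2 fold changes were -0.24 (SE 0.48) for Bcl2l1 and -0.30 (SE 0.34) for Mcl1, both with an adjusted p of 0.999 by edgeR.

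**Figure D2:**
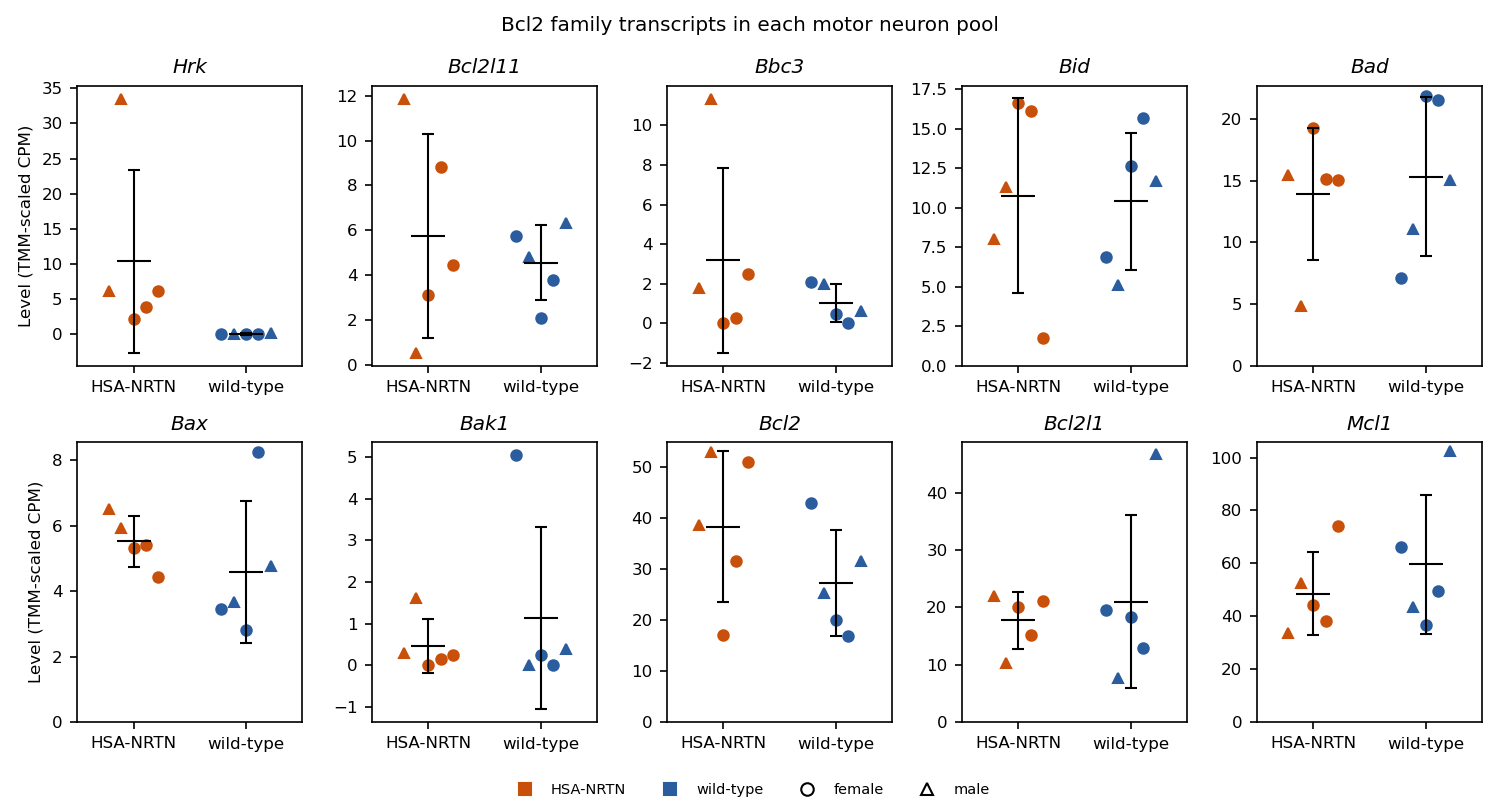
TMM-scaled CPM of the 10 members in each library, by genotype, with circles for females, triangles for males, and horizontal bars and whiskers for mean ± SD (n = 5 each). Only Hrk separates the groups (2.20 to 33.5 CPM in HSA-NRTN, 0 to 0.198 CPM in wild-type); whiskers can pass below 0 where 1 library stands far from the rest.

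Across the family, 8 of the 10 members passed the filter on low counts, and Hrk passed it only through its HSA-NRTN libraries. Of the 7 others, 4 had log2 fold changes above 0 and 3 below, and their median was 0.05 beside -0.01 over all genes tested. At an unadjusted p under 0.05, 562 of 11630 genes (4.83%) passed in the genotype comparison, and none of these 7 members was among them. The signs of Bid, Bad, Bcl2l11 and Bcl2l1 depended on single libraries, whereas those of Bax, Bcl2 and Mcl1 kept their direction when any 1 library was left out. The standard errors of the 7 members, 0.34 to 0.76 on the log2 scale, were derived from the F test and are approximate. They leave room for changes of appreciable size in either direction. In the authors' deposited table the other members with an adjusted p had values of 0.911 to 0.992, and Bak1 had none.

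**Figure D3:**
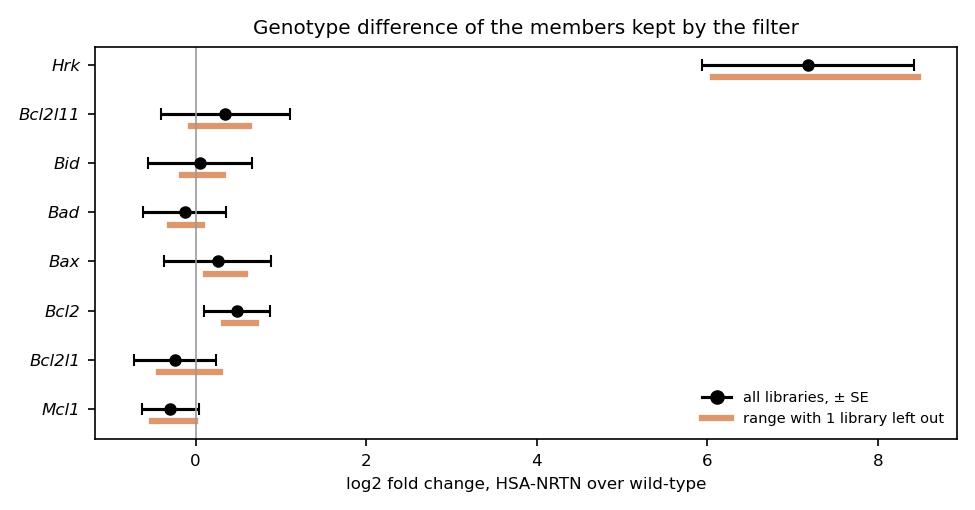
Log2 fold change of HSA-NRTN over wild-type pools for the 8 members kept by the filter. Whiskers are approximate standard errors derived from the F test, and the line below each point is the range when 1 library at a time was left out. Hrk lies at 7.18 (6.07 to 8.47 with 1 library left out), and the other 7 lie between -0.30 and 0.48.

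Levels were compared between members per kilobase of exon. Mcl1 led in both genotypes, at 14.2 ± 4.63 CPM per kb in HSA-NRTN and 17.4 ± 7.69 CPM per kb in wild-type pools (SD over 5 libraries each), and its lowest library lay above the highest library of the next gene, Bad, in each group. In HSA-NRTN pools the mean levels then ran from Bad (5.45 CPM per kb) through Bcl2 (4.17), Bcl2l1 (3.87), Bax (3.51), Bid (3.03), Hrk (1.83), Bbc3 (1.495) and Bcl2l11 (0.717) to Bak1 (0.192). In wild-type pools the order was Bad (5.99), Bcl2l1 (4.59), Bcl2 (2.98), Bid (2.93), Bax (2.91), Bcl2l11 (0.568), Bbc3 (0.481), Bak1 (0.472) and Hrk (0.00699 CPM per kb). Neighbours below Mcl1 overlapped in their ranges, with 1 exception: in wild-type pools every library of Bax was above every library of Bcl2l11. Hrk stood 7th of 10 in HSA-NRTN and last in wild-type pools. Its HSA-NRTN mean rested largely on replicate 2, at 5.90 CPM per kb, above the means of Bid, Bax, Bcl2l1, Bcl2 and Bad. HSA-NRTN replicates 1, 3, 4 and 5 had 1.10, 0.387, 0.678 and 1.09 CPM per kb of Hrk, below each of those means.

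**Figure D4:**
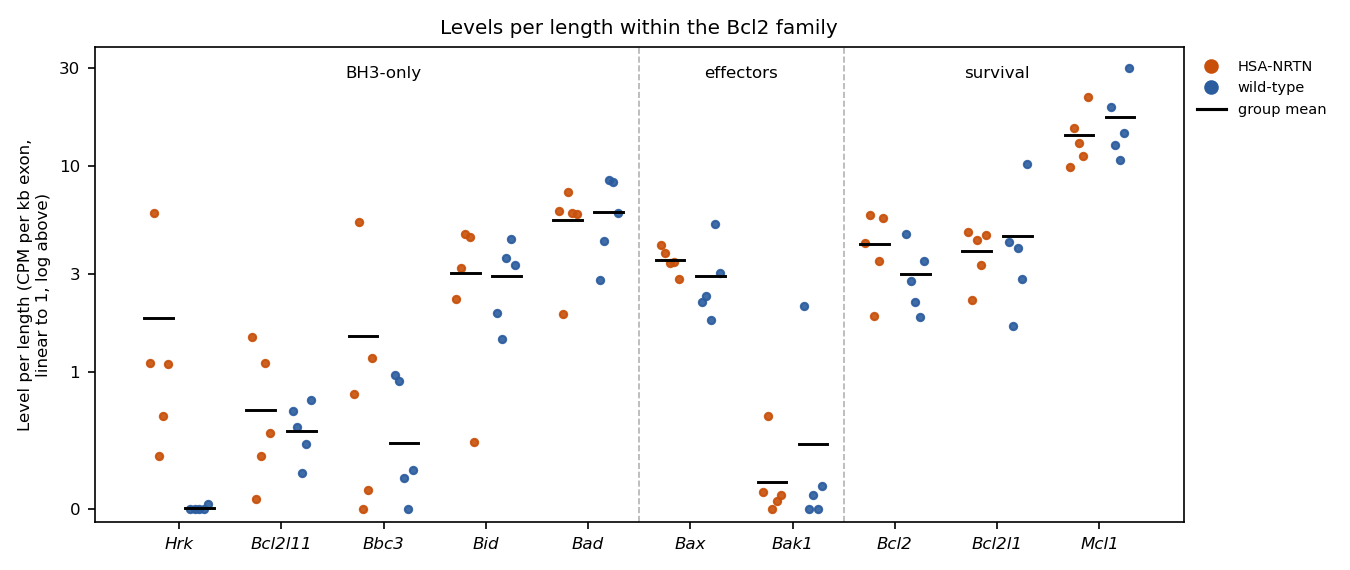
CPM per kilobase of exon for each member and library (axis linear to 1 and logarithmic above), grouped by role, with lines at the group means. Mcl1 is highest in both groups (means 14.2 in HSA-NRTN and 17.4 in wild-type), and Hrk has the lowest mean in wild-type pools (0.00699).

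Summed by role, the survival genes made up 57.3 ± 8.501% of the family's level per kilobase in HSA-NRTN and 63.5 ± 11.2% in wild-type pools (SD over 5 libraries each), with ranges of 52.8% to 72.5% and 50.8% to 76.4% that overlapped. The BH3-only genes other than Hrk summed to 10.7 ± 1.69 CPM per kb in HSA-NRTN and 9.97 ± 3.08 CPM per kb in wild-type pools. Hrk itself was 36.0% of the BH3-only sum in HSA-NRTN replicate 2 and 2.98% to 11.8% in the other HSA-NRTN libraries. In wild-type libraries it was 0% to 0.339%. Bad was the main BH3-only transcript per kilobase in most pools, at 11.6% to 64.2% of that sum in HSA-NRTN and 43.4% to 67.8% in wild-type libraries, the lowest share being that of HSA-NRTN replicate 2.

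Sex was not used to choose the family. No member passed between females and males by edgeR with genotype in the model, in which 1 of 11630 genes was called (0.0086%) and 1302 (11.2%) had an unadjusted p under 0.05. Of the 7 members tested other than Hrk, 2 had log2 fold changes of female over male above 0 and 5 below, with none at an unadjusted p under 0.05, and their median was -0.14 beside 0.01 over all genes. For Hrk, which had 1 count in all wild-type pools, a sex value rests on the 5 HSA-NRTN libraries and is given as levels. In HSA-NRTN pools Hrk had 2.20, 3.85 and 6.16 CPM in females and 6.23 and 33.5 CPM in males. The higher male value is that of replicate 2. Bad had the largest positive value, 0.52 (SE 0.50; adjusted p = 0.733 by edgeR).

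The genotype difference itself was compared between the sexes by the genotype by sex term. No member passed, and the lowest unadjusted p among them was 0.263, for Mcl1. Over all genes edgeR called 0 of 11630 (0%), while 598 (5.14%) had an unadjusted p under 0.05. With 0 counts of Hrk in wild-type females and 1 in wild-type males, the size of this term has no stable value for Hrk and is not given. Animal numbers in the labels fall into an earlier and a later run, of unstated meaning. The earlier run holds HSA-NRTN replicates 1 to 3 and wild-type replicate 1, and the later run the others. All HSA-NRTN males (replicates 1 and 2) are thus in the earlier run and all wild-type males (replicates 2 and 5) in the later. In males, genotype and run therefore cannot be told apart, and the genotype by sex term rests partly on the males.

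The 3 genes below, all kept by the filter, followed the pattern of Hrk most closely over the 10 libraries, by Pearson's r of log2(CPM + 1). They were Pnoc, the precursor of the peptide nociceptin (r = 0.961, Spearman's rho = 0.897), Mfsd2a, a lipid transporter (r = 0.946, rho = 0.932), and Gabrg3, a GABA-A receptor subunit (r = 0.941, rho = 0.848). Pnoc had 18.1, 68.1, 3.48, 17.8 and 13.8 CPM in HSA-NRTN pools, against 0, 1.42, 0, 1.38 and 0.595 CPM in wild-type pools. As with Hrk, the highest level of each of the 3 genes was that of HSA-NRTN replicate 2. The 10 points share 2 genotypes and that 1 library, and the values describe likeness only.

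The wider apoptosis pathway held 78 genes in 6 lists, of which 49 passed the filter. None was called between the genotypes by edgeR, and 2 of the 49 (4.08%) had an unadjusted p under 0.05, beside 4.83% over all genes. The median log2 fold change of the 49 was -0.09, with 21 positive and 28 negative values. Both of the 2 genes were lower in HSA-NRTN pools. Mapk8ip3, a JNK scaffold of axonal transport, had 110, 85.9, 69.1, 75.1 and 72.0 CPM in HSA-NRTN pools, against 161, 161, 127, 96.2 and 159 CPM in wild-type pools. Only HSA-NRTN replicate 1 reached into the wild-type range, above wild-type replicate 4. Its log2 fold change was -0.78 (SE 0.24; adjusted p = 0.651 by edgeR). Tnfrsf21, death receptor 6, averaged 173 ± 48.0 CPM in HSA-NRTN and 264 ± 58.5 CPM in wild-type pools (SD over 5 libraries each), a log2 fold change of -0.61 (SE 0.24) with an adjusted p of 0.937 by edgeR.

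By list, none of the 5 other Bcl2 family genes, 9 apoptosome and caspase genes, 4 caspase inhibitors, 3 death receptor genes, 20 JNK, FOXO, p53 and stress regulators or 8 mitochondrial partners that were tested passed between the genotypes. The 29 genes removed by the filter included Bmf with 7 counts, Bik with 10 and Pmaip1 (Noxa) with 52 over all 10 libraries, all of them BH3-only genes. Jun and Foxo3, known regulators of Hrk and Bcl2l11, were named whatever their values. Jun had 167, 189, 26.6, 39.5 and 57.7 CPM in HSA-NRTN pools, against 48.9, 125, 23.0, 53.2 and 65.2 CPM in wild-type pools, a log2 fold change of 0.60 (SE 0.53; adjusted p = 0.999 by edgeR). Foxo3 had 6.52, 14.6, 15.4, 19.2 and 15.0 CPM in HSA-NRTN and 23.9, 32.8, 23.5, 29.3 and 7.93 CPM in wild-type pools, a log2 fold change of -0.72 (SE 0.45; adjusted p = 0.999 by edgeR). Foxo3 was lower in all HSA-NRTN libraries than in 4 of the 5 wild-type libraries, and wild-type replicate 5 lay within the HSA-NRTN range.

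Between the sexes, none of the 49 wider genes was called by edgeR, and 9 (18.4%) had an unadjusted p under 0.05, beside 11.2% over all genes. Jun, the JNK target, had the smallest p of the 9. It ranged from 23.0 to 57.7 CPM in the 6 females (median 44.2) and from 65.2 to 189 CPM in the 4 males (median 146), without overlap. Over all genes, 128 (1.1%) had all 6 females below all 4 males. The log2 fold change of Jun was -1.66 (SE 0.34; adjusted p = 0.324 by edgeR). Mfn2, a mitochondrial fusion protein, also separated the sexes, at 84.0 to 101 CPM in females and 138 to 159 CPM in males, with a log2 fold change of -0.71 (SE 0.20, adjusted p = 0.367 by edgeR).

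Another 6 of the 9 genes are given here, and each overlapped between the sexes. Lower values in females were fitted for Xiap, which encodes a caspase inhibitor (log2 fold change -0.72, SE 0.32), for the JNK scaffold gene Mapk8ip1 (-1.10, SE 0.50), and for the inner membrane fusion gene Opa1 (-0.56, SE 0.25). Higher values in females were fitted for Bnip3, whose product takes part in mitophagy (1.63, SE 0.51), for the outer membrane channel gene Vdac3 (0.73, SE 0.30), and for Tnfrsf21 (0.49, SE 0.22). None passed after adjustment by edgeR. DESeq2, which called 209 of 13659 genes by sex (1.53%), called Jun (adjusted p = 0.00203) and Mfn2 (adjusted p = 0.00427). Female and male libraries also differed in quality: 16.3% to 46.1% of reads were unaligned in females and 33.1% to 58.6% in males, and the part of this in the sex values was not tested.

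**Figure D5:**
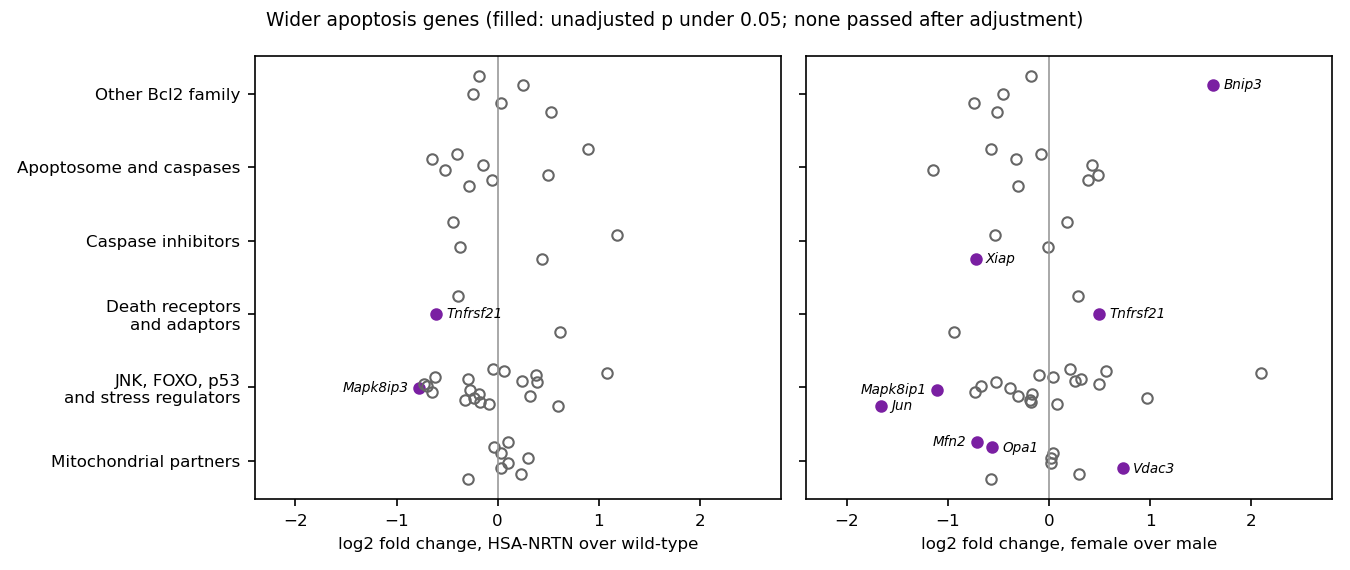
Log2 fold changes of 48 of the 49 wider apoptosis genes kept by the filter, by list, for HSA-NRTN over wild-type (left) and female over male (right). Filled points had an unadjusted p under 0.05, 2 of the plotted genes by genotype and 8 by sex, and none passed after adjustment over all 11630 genes.

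Some other fits called single genes of these lists, and the calls are read against how many genes each fit called in all. By genotype, refits of the same libraries that chose Hrk put it past the threshold, which adds no evidence, without the filter on low counts (81 of 26070 genes called, 0.311%), with sex as a covariate (5 of 11630, 0.043%) and without HSA-NRTN replicate 3 (13 of 11853, 0.11%). By sex, Jun and Bnip3 were called without the filter (315 of 26070 genes, 1.21%), and Jun, Bnip3 and Mapk8ip1 without wild-type replicate 1 (176 of 12054, 1.46%).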

How the data were processed

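Libraries were made by Smart-seq2 with Tn5, per the labels' protocols, a method without molecular identifiers or strand. Per the submitters' processing notes, STAR 2.5.0a aligned the reads to GRCm38.p6 and HTSeq counted them; how HTSeq was set is not given in the sources used here. Raw counts were deposited for 51912 genes, 92 spike-ins and 5 tallies that name no gene (57.6% to 86.5% of reads), which were left out. The authors' deposited signal table is the counts divided by 1 size factor per library. The authors' deposited comparison table holds moderated log2 fold changes, a Wald score and p-values.

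Genes were kept by filterByExpr (11630), scaled by TMM and tested in edgeR 4.0.16 (glmQLFTest, R 4.3.3): genotype with no covariate, sex with genotype, and their interaction. P-values were adjusted by Benjamini-Hochberg over all genes and called under 0.05. The F test of edgeR gives no standard error. Each SE shown with an edgeR value is the size of the log2 fold change over the square root of F, and is approximate. DESeq2 1.42.0, limma 3.58.1 voom, other filters, RLE scaling, covariates and left-out libraries were alternatives. Sequences and lengths are from GENCODE M21, with which 51719 genes matched; a planned comparison of RefSeq proteins was not made. Replicate numbers follow record order and pair no animals.

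The members, lists and tests were chosen with earlier results of these data known. All members were named, with Jun, Foxo3, the 3 genes most like Hrk, and up to 3 genes per list of smallest p under 0.05. A gene that the rule names is not reported here. Outside that rule, Bmf, Bik and Pmaip1 were named after their values were seen.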

Additional observations from a re-analysis of the deposited data

Results flagged for a closer look

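In 9 of 58 checked sets of 5 libraries, 1 library lay far from the other 4, measured as its gap to the nearest library over the whole range. For values that follow a normal curve, chance alone marks about 1 in 20 such sets. Levels that rest on few counts can be marked more often. A set with 0 in 4 libraries and any count in the other is always marked, as for Hrk in wild-type pools. Sets that share a library are not independent. HSA-NRTN replicate 2 accounts for 6 of the 9. It had 33.5 CPM of Hrk, against 2.20 to 6.23 CPM in the other HSA-NRTN libraries, 11.3 CPM of Bbc3, against 0 to 2.47 CPM, and 1.62 CPM of Bak1 from 3 counts, against 0 to 0.297 CPM. The same library had summed marker levels of 733 CPM for astrocytes, 1382 CPM for oligodendrocytes and 23.8 CPM for endothelial cells, the last against 3.86 to 5.92 CPM in the other HSA-NRTN libraries. The part of these cells in its Hrk, Bbc3 and Bak1 levels was not tested.

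Among wild-type libraries, replicate 5 had 0.198 CPM of Hrk, which is 1 count beside 0 in the others, and 299.7 CPM of excitatory interneuron markers, against 0.283 to 29.6 CPM. In that list of 2 markers Slc17a8 was at 0 in both groups, so the sum is that of Slc17a6. Wild-type replicate 1 had 5.05 CPM of Bak1, from 22 counts, while the rest of that group had 0 to 0.397 CPM.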

How the results depend on the processing

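No paired analysis was possible because the labels give no replicate numbers that link animals across the genotypes. Of the members, 0 were called by genotype in the reported fit, 1 without the low-count filter, 1 by DESeq2, 1 with sex as a covariate and 0 to 1 with 1 library left out; the gene was Hrk each time, whose genotype value had chosen the family. Its log2 fold change ran from 6.07 to 8.47 with 1 library left out, with adjusted p from 0.0373 to 0.178 by edgeR, and had no value without HSA-NRTN replicate 4, when the filter removed it. It was called in 4 of 19 other fits; females alone gave an adjusted p of 0.831 by edgeR. By sex, 0 wider genes were called, against 2 without the filter, 2 by DESeq2 and 0 to 3 with 1 library left out. Without the 2 libraries with the highest glial marker levels, an alternative chosen after seeing the data, no member or wider gene was called by genotype or sex.

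Folds of members not called turned round as follows, on the log2 scale. Bid was -0.13 by limma voom, -0.0021 in females alone, -0.084 without the 2 libraries of highest glial markers, and -0.17 to 0.32 with 1 library left out. Bcl2l11 was -0.057 to 0.62 with 1 library left out. Bad was 0.16 with the run of animal numbers as a covariate and -0.30 to 0.078 with 1 library left out. Bcl2l1 was 0.18 in females alone and -0.43 to 0.29 with 1 library left out, and Mcl1 was 0.060 in females alone. The cause was not tested. The order of the 10 levels over all libraries was the same with the authors' deposited normalized values. Counts of 0 to 62 per library limit what can be said of Bbc3, Bak1 and Hrk.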
